A study of Arabidopsis thaliana with 18 samples.

Results

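The genes described here are 69 Arabidopsis thaliana genes, of 28278 in the count table, that were lower in mock-treated seedlings of both aff1 mutants than in mock-treated wild type and that changed little when wild-type seedlings were given auxin. Values are given as CPM, a gene's count over the sum of its sample times 1000000. A gene was taken when the log2 ratio of mean CPM (0.5 CPM added to each mean) was -0.7 or less in both mutants, which is a level of at most 0.616 times that of wild type, when all 6 mutant mock samples lay below all 3 wild-type mock samples, when mean CPM over all 18 samples was at least 1, and when IAA moved the wild-type mean by less than 1.5-fold. The last condition is a window on a mean and not a test for the absence of a response. Because the mock values and the wild-type IAA values chose the genes, both are given below as a description and without a test.

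The samples were whole seedlings 4 d old, moved to liquid medium for 2 h with IAA or, as mock, with ethanol. There were 6 groups of 3 samples: IAA-treated aff1-1, aff1-3 and Wt, and mock-treated aff1-1, aff1-3 and Wt. Wt is Col-0, and both mutants are in that background. aff1-1 carries a point mutation found in a chemical mutagenesis screen of arf19-1 35S:YFP-ARF19 seeds, and was backcrossed to Col-0, but the generation sequenced is not given in the sources used here. aff1-3 is the T-DNA insertion line Salk_083453, which the sample labels name aff1-2 and the study names aff1-3. Each mutant was 1 line. The IAA dose is 10 μM in the study's methods, whereas one protocol label gives 10 mM. Repeats were repeated treatments of a line, and nothing in the labels says whether they came from separate seed lots, so p-values measure the spread between these treatments.

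IAA, the main natural auxin, acts through AUXIN RESPONSE FACTOR (ARF) transcription factors, and AFF1 is an F-box protein named for its action on ARF7 and ARF19, activator ARFs of root development. Growing plant cells loosen and rebuild a wall of cellulose, pectin and other polysaccharides: expansins loosen it, pectate lyases and pectin acetylesterases remodel pectin, and extensins and proline-rich proteins are structural glycoproteins that can be cross-linked into it. Root hairs, tip-growing outgrowths of root epidermal cells, express a large set of extensins, expansins and proline-rich proteins. GDSL lipases include enzymes that act on cutin and suberin, the polyesters of the outer epidermis and of the root endodermis and periderm.

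Counts per sample were between 12610301 and 36102396. AFF1 (AT3G49150, chr3:18218858-18220430, plus strand, TAIR10.1) had 3, 0 and 0 counts in IAA-treated aff1-1, 73, 54 and 46 counts in IAA-treated aff1-3, and 5, 8 and 1 counts in IAA-treated Wt. In mock samples it had 1, 2 and 1 counts in aff1-1, 104, 88 and 144 counts in aff1-3, and 2, 6 and 9 counts in Wt. The insertion line thus had more AFF1 counts than Wt, and counts per gene do not say from which part of the gene they came. AFF1 counts were few in both aff1-1 and Wt, a difference between these was not tested, and the counts do not check a point mutation. Seed storage genes summed to 218.79 CPM in replicate 1 of IAA-treated aff1-1, 69.33 CPM in replicate 2 of mock Wt and 54.79 CPM in replicate 1 of IAA-treated Wt, against at most 22.36 CPM in the other samples. Results are given with these libraries. Without replicate 2 of mock Wt the rule took 79 genes, 60 of them among the 69, and the omission of both IAA libraries is given with the counts of calls.

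In mock seedlings the 69 genes had a median level of 50.5% of Wt in aff1-1 (3.56% to 60.8%) and of 47.5% in aff1-3 (4.25% to 60.6%). The median log2 ratio over the genes was -1.005, -0.886 and -1.004 in the 3 mock aff1-1 samples, -0.91, -1.11 and -1.04 in the 3 mock aff1-3 samples, and -0.01, -0.06 and 0.07 in the 3 mock Wt samples, each against the mock Wt mean. Every gene was below that mean in each of the 6 mutant samples, as the rule requires. In whole seedlings, fewer cells of a type and less RNA per cell cannot be told apart. The genes closest to the threshold on the weaker allele were AT1G68600, an aluminium-activated malate transporter family gene (-0.702 in aff1-1), and AT5G44680, a DNA glycosylase family gene (-0.703 in aff1-1). Just outside it were LRX1, a leucine-rich repeat extensin of root hairs (-0.696 in aff1-1), and RHS19, a root hair-specific gene (-0.694 in aff1-1). AT5G26260 of the TRAF-like family had the highest level per length over all samples (133 CPM per kb of exon), ahead of the GDSL lipase gene AT3G16370 (101 CPM per kb), ADH1 (97.8 CPM per kb) and PRP3 (94.2 CPM per kb). The median gene was at 5.58 CPM per kb and the lowest at 0.623 CPM per kb, so the genes spanned a wide range of abundance.

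In IAA-treated seedlings the whole group again lay below Wt in both mutants. The median level was 57.5% of Wt in aff1-1 (6.58% to 87.3%) and 58.0% in aff1-3 (6.7% to 92.5%). The median log2 ratio to the IAA-treated Wt mean was -0.71, -0.81 and -0.76 in the 3 aff1-1 samples, -0.68, -0.75 and -0.79 in the 3 aff1-3 samples, and -0.02, 0.01 and -0.002 in the 3 Wt samples. All 69 genes were below the Wt mean in replicates 1 and 2 of each mutant, and 67 and 68 were in replicate 3 of aff1-1 and of aff1-3. By edgeR's quasi-likelihood test at an adjusted p below 0.01 over 19383 genes, 37 of the 69 were lower in aff1-1, 0 were higher and 32 made no call, where 1.71% of all tested genes were lower. In aff1-3, 33 were lower, 0 were higher and 36 made no call, where 1.33% of all tested genes were lower. The median log2 fold change was -0.71 in aff1-1 (-3.81 to -0.11) and -0.74 in aff1-3 (-3.74 to -0.07), against -0.01 over all genes in each. All 69 estimates were below 0 in both, 56 and 58 of them at an unadjusted p below 0.05, and 0 genes were higher by DESeq2 or limma either.

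These IAA comparisons are only partly free of the rule. The IAA-treated mutant samples entered it only through the mean CPM over all 18 samples. But Wt had to stay within 1.5-fold, with 0.5 CPM added to each mean. On that scale, a gene whose mutant level did not move with IAA had to be lower by at least 0.115 (log2). Both mutants were also set against the same 3 Wt samples. The test took genes above 1 CPM in at least 2 samples of a group. Among the genes called lower, AT2G16005 and MLP328 (both mutants) and AT3G26460 (aff1-1) met that limit through Wt samples alone. The counts of calls include them. Of the 69, 27 genes were lower in both mutants (0.681% of all tested genes were), 10 in aff1-1 alone, 6 in aff1-3 alone and 26 in neither. A call in 1 mutant does not show a difference between mutants, which was tested separately. All 3 aff1-1 samples lay below all 3 Wt samples for 60 of 69 genes (87.0%, against 28.7% of 18826 genes with a mean of at least 1 CPM), and all 3 aff1-3 samples did for 58 (84.1%, against 18.4%). Without replicate 2 of IAA-treated Wt the count lower in both was 18. Without replicate 1 of IAA-treated aff1-1, the library with most seed storage RNA, 34 were lower in aff1-1, and without replicate 1 of IAA-treated Wt 32 and 29 were.

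**Figure D1:**
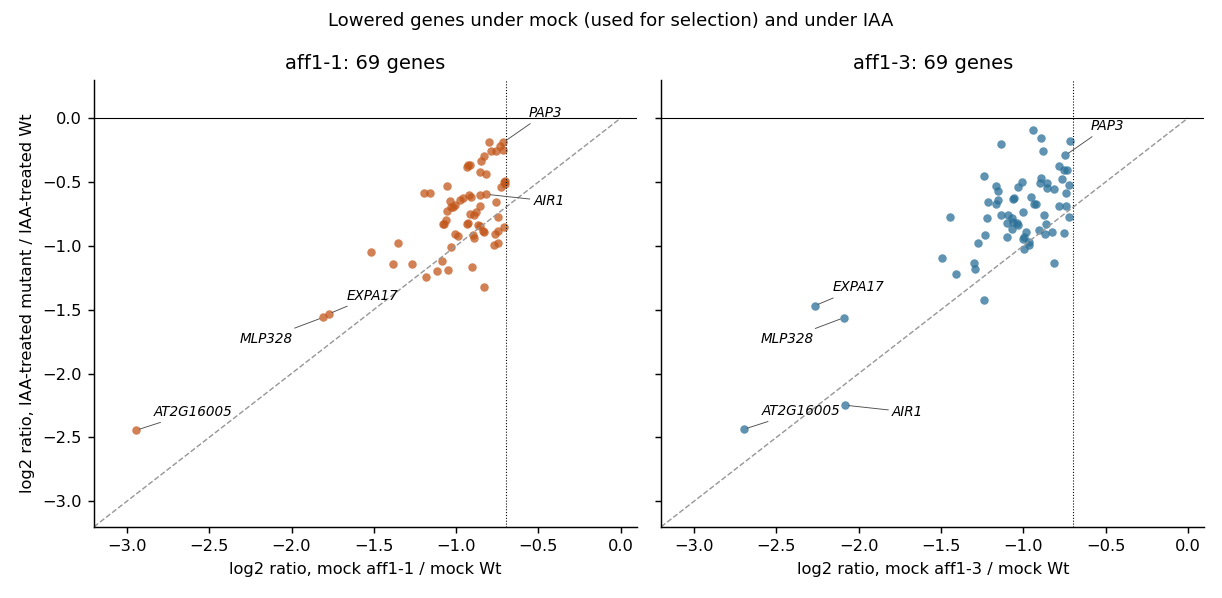
Log2 ratio of mean CPM (0.5 added) of IAA-treated mutant over IAA-treated Wt (y axis) against mock mutant over mock Wt (x axis, used to choose the genes) for the 69 genes, aff1-1 left and aff1-3 right; the dotted line is the threshold of -0.7 and the dashed line marks equal ratios. Every point lies below 0 on the y axis, 53 of 69 in aff1-1 and 59 of 69 in aff1-3 lie nearer to 0 under IAA than under mock, and AIR1 stands apart in aff1-3 only. As a large mock gap chose the genes, that choice may make the gap under IAA look smaller, and its part was not tested.

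**Figure D2:**
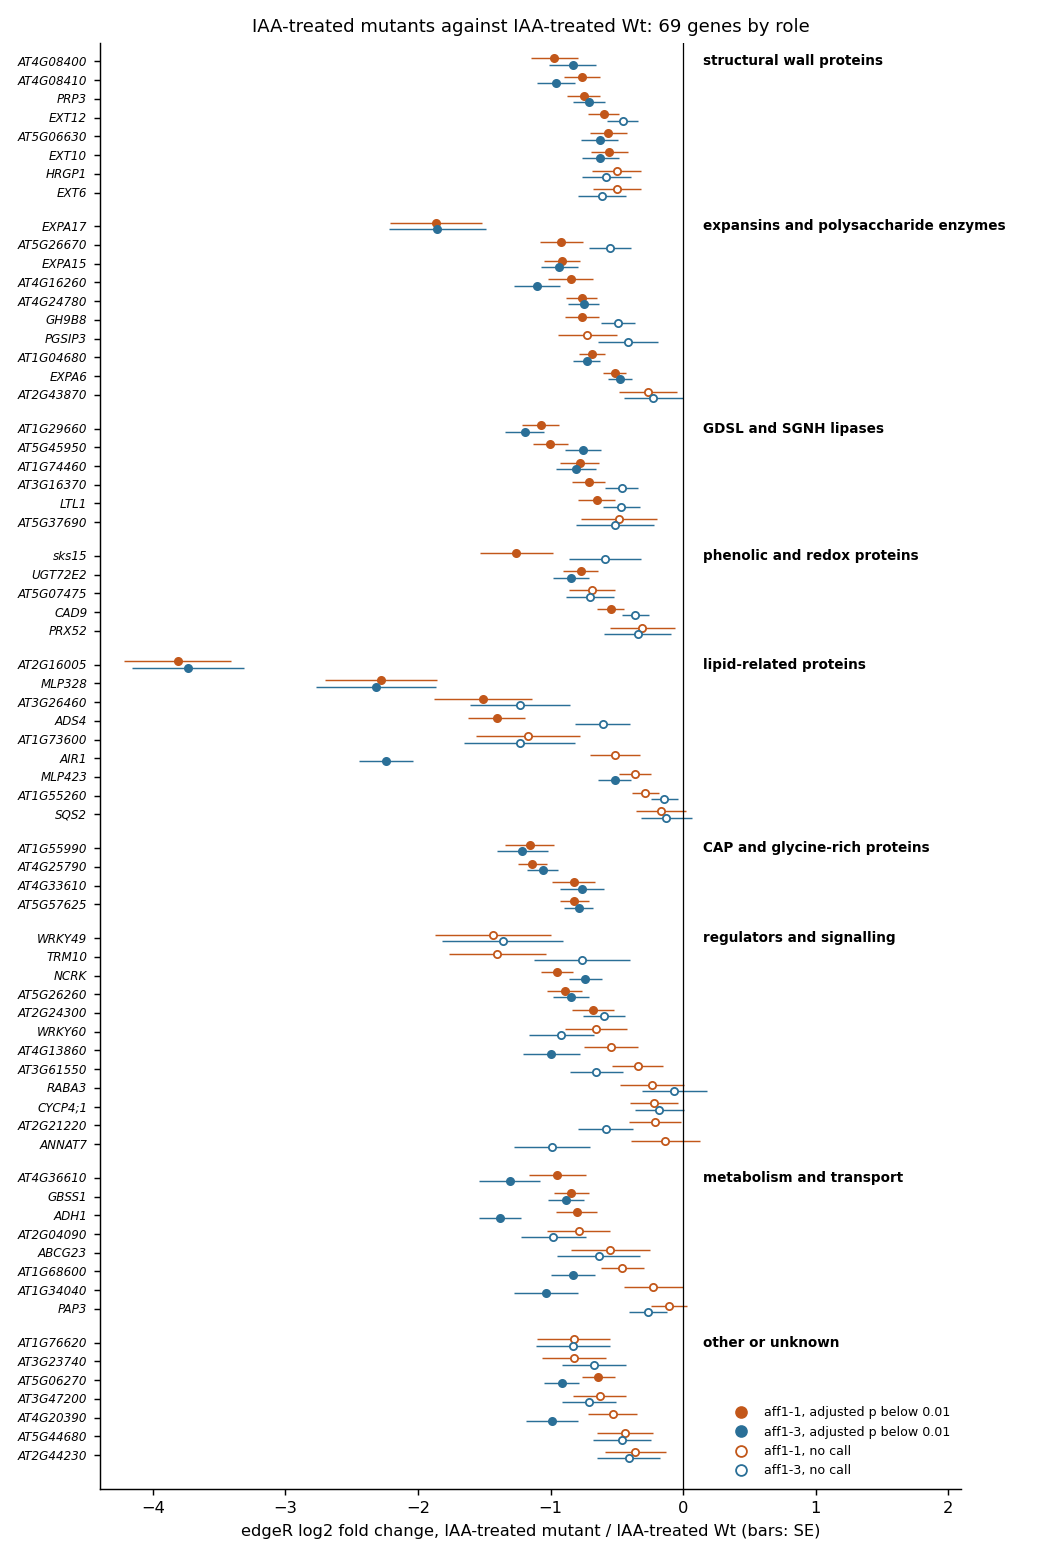
edgeR log2 fold change with its SE (x axis) of IAA-treated mutant over IAA-treated Wt for each of the 69 genes, grouped by role; filled points have an adjusted p below 0.01, orange is aff1-1 and blue is aff1-3. All estimates are below 0, with AT2G16005 lowest at -3.81 and -3.74, and all 4 CAP and glycine-rich genes are filled in both mutants.

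Structural wall proteins made up 8 of the 69 genes: the extensins EXT6, EXT10, EXT12, AT4G08400, AT4G08410 and AT5G06630, the hydroxyproline-rich glycoprotein HRGP1, and PRP3, a proline-rich protein of root hair walls. Of these, 6 were lower in IAA-treated aff1-1, 5 in aff1-3 and 5 in both, with median log2 fold changes of -0.58 and -0.63. The extensin set is shown by sequence because its 6 members share a 16-base stretch in the 250 bases before their annotated starts, found by comparing those windows after the members were known. The lines give 70 bases around it, 5′ to 3′ on the gene's strand, from RefSeq TAIR10.1, with the stretch in capitals.
EXT6: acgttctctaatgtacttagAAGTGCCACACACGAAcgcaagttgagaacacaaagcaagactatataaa
AT4G08400: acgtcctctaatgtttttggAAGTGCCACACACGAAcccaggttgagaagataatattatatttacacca
AT4G08410: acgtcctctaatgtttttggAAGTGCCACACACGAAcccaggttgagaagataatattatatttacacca
EXT12: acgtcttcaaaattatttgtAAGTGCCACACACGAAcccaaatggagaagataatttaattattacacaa
AT5G06630: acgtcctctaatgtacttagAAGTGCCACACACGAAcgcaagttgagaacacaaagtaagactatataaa
EXT10: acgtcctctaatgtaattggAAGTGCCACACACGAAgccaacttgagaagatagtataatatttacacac
They lie at chr2:10622303-10622372 (plus strand) for EXT6, chr4:5325414-5325483 (minus) for AT4G08400, chr4:5341228-5341297 (minus) for AT4G08410, chr4:7783688-7783757 (plus) for EXT12, chr5:2037879-2037948 (minus) for AT5G06630 and chr5:2041957-2042026 (minus) for EXT10. The stretch begins 73, 89, 68, 83, 73 and 78 bases before the gene start in that order. It was picked as the longest stretch that all 6 windows share, so its presence in these 6 was fixed beforehand. It occurs in 6 of 27444 windows of protein-coding genes (0.0219%), all of them these members, and in 0 of the 15 other extensin windows. The window of HRGP1 lacks it. The 6 genes are paralogs, and binding at the stretch was not measured.

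The extensins differed in level, EXT12 at 55.9 CPM per kb over all samples and AT4G08410 at 5.21 CPM per kb. EXT6 had 45.9, 37.7 and 48.6 CPM in IAA-treated aff1-1, 43.1, 46.5 and 36 CPM in IAA-treated aff1-3, and 52.5, 73.8 and 72.4 CPM in IAA-treated Wt. All mutant samples were below all Wt samples, but EXT6 made no call (log2 fold change -0.50 ± 0.18 SE, adjusted p = 0.0714 in aff1-1, and -0.61 ± 0.18, adjusted p = 0.0404 in aff1-3). Its mock values, which chose it, were 38.2, 45.3 and 31.5 CPM in aff1-1, 49.6, 24.4 and 39.4 CPM in aff1-3, and 103, 77.6 and 84.4 CPM in Wt. EXT10 and AT5G06630 are neighbours on chromosome 5, 1742 bases apart on the minus strand and the only members adjacent to each other. EXT10 had 44.3, 37.4 and 53.1 CPM in IAA-treated aff1-1, 43.6, 52.9 and 35.8 CPM in IAA-treated aff1-3, and 63.8, 75 and 72.5 CPM in IAA-treated Wt. AT5G06630 had 49.4, 42.1 and 51.8 CPM in IAA-treated aff1-1, 46.6, 49.6 and 44.5 CPM in IAA-treated aff1-3, and 65.1, 77.5 and 82.7 CPM in IAA-treated Wt. For both genes the mutant and Wt samples did not overlap, and the log2 fold changes were -0.56 in aff1-1 and -0.62 (EXT10) and -0.63 (AT5G06630) in aff1-3.

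The calls of this neighbouring pair rested on all samples being present. In aff1-1 the adjusted p was 0.00956 for EXT10 and 0.00929 for AT5G06630, and it was as high as 0.065 for EXT10 and 0.0582 for AT5G06630 without replicate 2 of IAA-treated aff1-1. In aff1-3 it was 0.00546 and 0.0054, and without replicate 2 of IAA-treated Wt it was 0.0377 for EXT10 and 0.0313 for AT5G06630. Without replicate 3 of IAA-treated Wt it was 0.0371 for EXT10 and 0.0532 for AT5G06630 in aff1-1, and 0.0233 and 0.0359 in aff1-3. Of replicates of the mutants, leaving out aff1-1 replicate 1 gave 0.0267 and 0.0181, and leaving out aff1-3 replicate 1 gave 0.0212 and 0.0201. Leaving out aff1-3 replicate 3 gave 0.0437 and 0.0311. EXT10 also lost the aff1-1 call without Wt replicate 1 (0.0134), and AT5G06630 lost it without aff1-1 replicate 3 (0.0178) and the aff1-3 call without aff1-3 replicate 2 (0.0156). The direction held in each.

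Reads of near-identical extensins are hard to place. Only 43.8% of the 50-base stretches in the exons of AT4G08400 occurred once in the nuclear genome, 47.4% in AT4G08410, 60.0% in EXT6 and 67.9% in AT5G06630, against 97.9% in EXT10. The authors counted uniquely aligned reads, so the values of these genes are uncertain as those of single genes. In all, 59 of the 69 genes had at least 95% unique stretches. EXT10 also overlaps an annotated gene on the opposite strand, AT5G06645, by 692 bases, and the sources used here do not say whether counting used strand.

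PRP3 and HRGP1 were the most abundant of the structural proteins by CPM. PRP3 had 86.0, 69.7 and 88.4 CPM in IAA-treated aff1-1, 92.4, 90.6 and 74.5 CPM in IAA-treated aff1-3, and 139, 147 and 151 CPM in IAA-treated Wt. The groups were far apart, and PRP3 was lower in both mutants (log2 fold change -0.75 ± 0.12 SE, adjusted p = 0.000269 in aff1-1, and -0.71 ± 0.12, adjusted p = 0.000508 in aff1-3). HRGP1 had 98.1, 86.6 and 118 CPM in IAA-treated aff1-1, 99.8, 116 and 77.6 CPM in IAA-treated aff1-3, and 129, 163 and 164 CPM in IAA-treated Wt. Its groups did not overlap, but its spread was wide and it made no call (adjusted p = 0.0743 in aff1-1 and 0.0537 in aff1-3). HRGP1 lies 1985698 bases from AFF1 on chromosome 3.

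A longer motif known from root hair genes, the root hair element, was searched on both strands of the same windows. It matched 3 of 69 members (4.35%), against 148 of 19115 windows of tested genes (0.774%): MLP328, AT3G26460 and PRP3, of which only PRP3 is on the root hair list below. They are shown because they are the only members with it, as 70 bases of the gene's strand from TAIR10.1 with the match in capitals.
MLP328: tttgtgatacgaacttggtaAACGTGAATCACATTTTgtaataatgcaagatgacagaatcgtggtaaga
AT3G26460: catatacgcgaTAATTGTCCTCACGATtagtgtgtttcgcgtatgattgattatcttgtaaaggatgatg
PRP3: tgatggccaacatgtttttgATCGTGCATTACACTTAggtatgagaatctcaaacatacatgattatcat
They lie at chr2:235781-235850 (plus strand) for MLP328, chr3:9684838-9684907 (minus) for AT3G26460 and chr3:23182535-23182604 (plus) for PRP3, and the match begins 124, 239 and 167 bases before the gene start. None of the 6 extensin windows held a match.

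**Figure D3:**
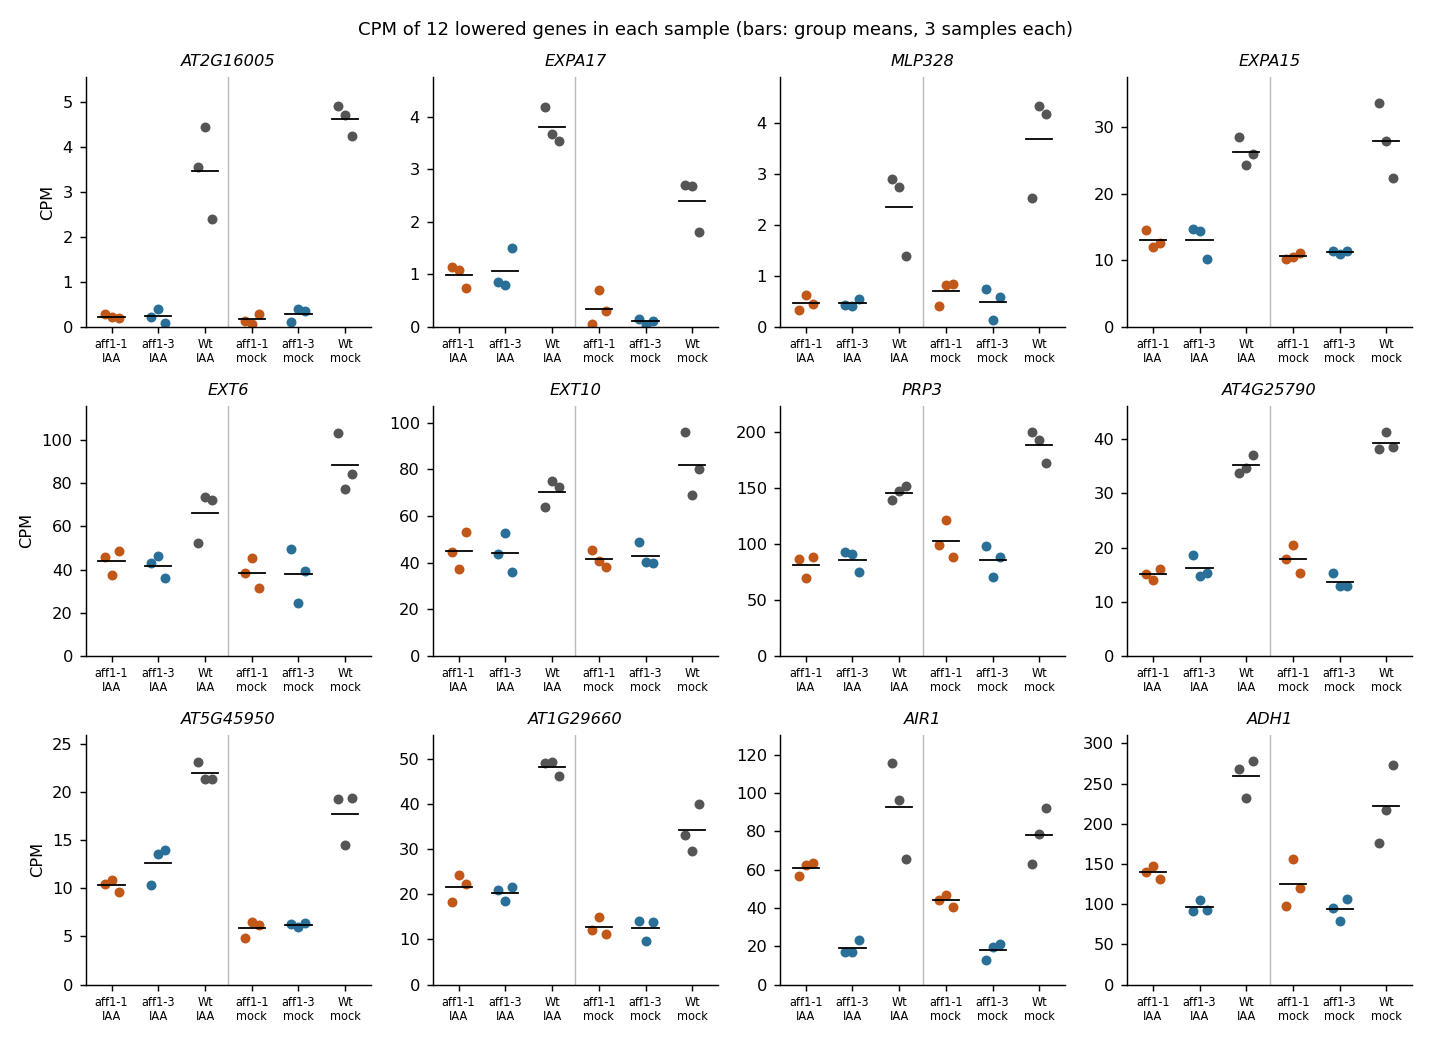
CPM (y axis) of 12 of the genes in each of the 18 samples, IAA groups left of the vertical line and mock groups right, with bars at group means of 3 samples. Mutant and Wt points of 1 treatment do not overlap for any of the 12 genes. Under IAA, AIR1 in aff1-1 lies just below Wt, with a highest value of 63.5 CPM against a lowest Wt value of 65.4 CPM.

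Expansins and enzymes of wall polysaccharides were 10 of the genes, and 8 were lower in IAA-treated aff1-1, 6 in aff1-3 and 6 in both, with median log2 fold changes of -0.76 and -0.64. EXPA17, an expansin linked to lateral root formation, had 1.14, 1.09 and 0.74 CPM in IAA-treated aff1-1, 0.853, 0.806 and 1.51 CPM in IAA-treated aff1-3, and 4.20, 3.67 and 3.55 CPM in IAA-treated Wt. The lowest Wt sample was above the highest mutant sample by more than 2 CPM, and the log2 fold change was -1.86 ± 0.35 SE (adjusted p = 0.00111) in aff1-1 and -1.85 ± 0.37 (adjusted p = 0.00195) in aff1-3. These rest on few reads, 21 to 32 in aff1-1 and 16 to 20 in aff1-3. The mean of EXPA17 over all 18 samples, 1.45 CPM, reached the limit of 1 CPM only through Wt. The aff1-1 call was lost without replicate 3 of aff1-1 (adjusted p = 0.0126) and the aff1-3 call without replicate 1 or 2 of aff1-3 (adjusted p = 0.0164 and 0.018). In mock samples EXPA17 had 1, 11 and 8 counts in aff1-1, 4, 1 and 3 counts in aff1-3, and 62, 64 and 65 counts in Wt. EXPA15, another expansin, had 14.6, 12.05 and 12.54 CPM in IAA-treated aff1-1, 14.8, 14.4 and 10.2 CPM in IAA-treated aff1-3, and 28.5, 24.3 and 25.9 CPM in IAA-treated Wt. It was lower in both, without overlap (-0.91 ± 0.14, adjusted p = 0.000117, and -0.93 ± 0.14, adjusted p = 0.000111). EXPA6, the third expansin, was lower by less, at -0.52 in aff1-1 and -0.48 in aff1-3.

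Of the pectin enzymes, the pectin lyase-like gene AT4G24780 had 14.7, 12.46 and 13.1 CPM in IAA-treated aff1-1, 13.8, 14.4 and 13.6 CPM in IAA-treated aff1-3, and 25.6, 24.6 and 22.6 CPM in IAA-treated Wt. Both mutants were below Wt with narrow groups (-0.77 ± 0.11, adjusted p = 0.000113, and -0.75 ± 0.12, adjusted p = 0.000167). The more abundant gene of the same family, AT1G04680, had 101, 103 and 102 CPM in IAA-treated aff1-1, 106, 104 and 94.8 CPM in IAA-treated aff1-3, and 179, 165 and 179 CPM in IAA-treated Wt. It too was lower in both (-0.69 ± 0.10, adjusted p = 0.000103, and -0.73 ± 0.10, adjusted p = 5.75e-05), and its Wt log2 ratio of IAA over mock, 0.575, was the highest of the 69. AT4G16260, a glycosyl hydrolase gene, was lower in both. GH9B8, a cellulase-family gene, and the pectin acetylesterase gene AT5G26670 were lower in aff1-1 only, where the difference between mutants was not past the threshold. PGSIP3 (also GUX2), which decorates the wall polysaccharide xylan with glucuronic acid, and the third pectin lyase-like gene, AT2G43870, made no call.

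GDSL and SGNH lipases were 6 of the genes, of which 5 were lower in IAA-treated aff1-1 and 3 in aff1-3. AT1G29660 had 18.23, 24.3 and 22.3 CPM in IAA-treated aff1-1, 21.0, 18.5 and 21.6 CPM in IAA-treated aff1-3, and 49.2, 49.3 and 46.2 CPM in IAA-treated Wt. Its mutant values were all less than the lowest Wt value by over 20 CPM (-1.08 ± 0.14, adjusted p = 2.99e-05, and -1.20 ± 0.14, adjusted p = 8.48e-06). AT5G45950 had 10.4, 10.9 and 9.65 CPM in IAA-treated aff1-1, 10.4, 13.5 and 14 CPM in IAA-treated aff1-3, and 23.1, 21.3 and 21.3 CPM in IAA-treated Wt. Both mutants were lower (-1.001 ± 0.13, adjusted p = 3.39e-05, and -0.76 ± 0.13, adjusted p = 0.000703). AT1G74460, also called GELP38 and counted on the suberin list, had 10.7, 7.96 and 10.7 CPM in IAA-treated aff1-1, 8.74, 10.3 and 10.9 CPM in IAA-treated aff1-3, and 18.5, 19.2 and 16.1 CPM in IAA-treated Wt. Its groups did not overlap (adjusted p = 0.00122 and 0.00119). Without replicate 2 of Wt its adjusted p was 0.0108 in aff1-1 and 0.0115 in aff1-3, without aff1-1 replicate 2 it was 0.0106, and without aff1-3 replicate 1 it was 0.0116. AT3G16370 had 177, 169 and 167 CPM in IAA-treated aff1-1, 207, 202 and 216 CPM in IAA-treated aff1-3, and 289, 314 and 289 CPM in IAA-treated Wt. It was lower in aff1-1 (-0.71 ± 0.12, adjusted p = 0.000554) and made no call in aff1-3 (-0.46 ± 0.12, adjusted p = 0.02), with no overlap in either, and it overlaps AT3G16380 on the opposite strand by 538 bases.

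Lipid-related proteins were 9 of the genes, of which 4 were lower in IAA-treated aff1-1, 4 in aff1-3 and 2 in both, and 3 made no call in either. They held the largest differences of all 69 under IAA, those of AT2G16005 and MLP328, both genes of few counts. AT2G16005, annotated with an MD-2-related lipid recognition domain, had 8, 4 and 6 counts (0.285, 0.207 and 0.193 CPM) in IAA-treated aff1-1, 5, 8 and 1 counts (0.213, 0.403 and 0.079 CPM) in IAA-treated aff1-3, and 60, 139 and 52 counts (3.55, 4.44 and 2.40 CPM) in IAA-treated Wt. In mock samples it had 3, 1 and 8 counts in aff1-1, 3, 9 and 10 counts in aff1-3, and 112, 112 and 153 counts in Wt. Each mutant library thus had at most 10 counts and each Wt library at least 52. All mutant samples of AT2G16005 were below 1 CPM, so it met the limit on mean CPM and the filter of the test only through Wt. Its log2 fold change under IAA was -3.81 ± 0.40 (adjusted p = 2.1e-06) in aff1-1 and -3.74 ± 0.42 (adjusted p = 3.97e-06) in aff1-3, the lowest of the 69 in both.

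MLP328, a major latex protein-like gene of the Bet v 1 fold, had 9, 12 and 14 counts (0.320, 0.620 and 0.450 CPM) in IAA-treated aff1-1, 10, 8 and 7 counts (0.426, 0.403 and 0.555 CPM) in IAA-treated aff1-3, and 49, 86 and 30 counts (2.90, 2.75 and 1.38 CPM) in IAA-treated Wt. It was lower in both mutants (-2.28 ± 0.43, adjusted p = 0.00106, and -2.32 ± 0.45, adjusted p = 0.00179), without overlap. Like AT2G16005, MLP328 had all mutant samples below 1 CPM and met both limits only through Wt. The aff1-3 call was lost without Wt replicate 2 (adjusted p = 0.0127) and without aff1-3 replicate 1 (0.013) or 2 (0.014). ADS4, of the fatty acid desaturase family, had 1.46, 2.02 and 1.51 CPM in IAA-treated aff1-1, 2.69, 2.92 and 3.25 CPM in IAA-treated aff1-3, and 4.5, 4.79 and 4.56 CPM in IAA-treated Wt. The aff1-3 samples lay between the other groups: ADS4 was lower in aff1-1 (-1.40 ± 0.22, adjusted p = 0.000154) and made no call in aff1-3 (-0.61 ± 0.21, adjusted p = 0.0784), while the difference between mutants, 0.80 ± 0.23 for aff1-3 over aff1-1, did not pass (adjusted p = 0.136). At the other end, SQS2, annotated as squalene synthase 2, had 2.92, 3.10 and 2.51 CPM in IAA-treated aff1-1, 2.73, 3.17 and 3.09 CPM in IAA-treated aff1-3, and 3.25, 2.75 and 4.19 CPM in IAA-treated Wt. Its groups overlapped and it made no call (adjusted p = 0.613 and 0.783).

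AIR1 was the gene in which the alleles parted. It was first found as an RNA induced by auxin in root cultures, and its protein resembles lipid transfer proteins. In IAA-treated samples it had 57.0, 62.7 and 63.5 CPM in aff1-1, 16.9, 17.2 and 23.2 CPM in aff1-3, and 116, 96.7 and 65.4 CPM in Wt. The aff1-3 samples were far below both other groups, and the aff1-1 samples lay just below the lowest Wt sample. AIR1 was lower in aff1-3 than in aff1-1 (-1.73 ± 0.20, adjusted p = 5.3e-05), the only one of the 69 genes that differed between mutants, where 0.181% of all tested genes did. Against Wt it was lower in aff1-3 (-2.24 ± 0.20, adjusted p = 2.13e-07) and made no call in aff1-1 (-0.51 ± 0.19, adjusted p = 0.0695). The same order was present in mock samples, which entered the choice of the gene: 44.4, 47.0 and 40.7 CPM in aff1-1, 13.1, 19.6 and 21.3 CPM in aff1-3, and 62.9, 78.7 and 92.2 CPM in Wt. The Wt ratio of IAA over mock was 0.25 on the log2 scale. Of AIR1's 50-base exon stretches 88.6% were unique, and the gene overlaps AT4G12555 on the opposite strand by 642 bases.

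CAP and glycine-rich proteins were 4 of the genes, and all 4 were lower in both IAA-treated mutants. AT4G25790, of the CAP superfamily of secreted cysteine-rich proteins, had 15.2, 13.9 and 16.0 CPM in IAA-treated aff1-1, 18.7, 14.7 and 15.3 CPM in IAA-treated aff1-3, and 33.8, 34.7 and 37.1 CPM in IAA-treated Wt. It had the lowest adjusted p of the 69 genes in aff1-1 (-1.14 ± 0.11, adjusted p = 1.15e-06) and was as low in aff1-3 (-1.06 ± 0.12, adjusted p = 2.34e-06). AT1G55990, annotated as a glycine-rich protein, had 3.42, 2.95 and 3.83 CPM in IAA-treated aff1-1, 3.20, 3.22 and 3.81 CPM in IAA-treated aff1-3, and 6.80, 8.56 and 8.89 CPM in IAA-treated Wt. Both mutants were lower, without overlap (-1.16 ± 0.18, adjusted p = 0.000223, and -1.21 ± 0.19, adjusted p = 0.000197). AT5G57625 and AT4G33610, the second CAP and the second glycine-rich gene, had log2 fold changes between -0.83 and -0.76. The aff1-1 call of AT4G33610 was lost without Wt replicate 2 (adjusted p = 0.0133) or aff1-1 replicate 2 (0.0104). Its aff1-3 call was lost without Wt replicate 2 or 3 (0.0342 and 0.0117) and without aff1-3 replicate 1 or 2 (0.031 and 0.0321).

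Phenolic and redox proteins were 5 of the genes, with 3 lower in IAA-treated aff1-1 and 1 in aff1-3. UGT72E2, which glucosylates lignin precursors, was lower in both (-0.77 and -0.85). CAD9, of the cinnamyl alcohol dehydrogenase family of lignin synthesis, and sks15, a multicopper oxidase-like SKU5 relative, were lower in aff1-1 only, at -0.55 and -1.26 there, beside -0.36 and -0.59 in aff1-3, and neither differed between mutants at the threshold. The peroxidase gene PRX52 and the cupredoxin gene AT5G07475 made no call.

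Metabolism and transport held 8 of the genes. ADH1, the alcohol dehydrogenase of fermentation in low oxygen, had 140, 148 and 131 CPM in IAA-treated aff1-1, 91.0, 105 and 92.7 CPM in IAA-treated aff1-3, and 268, 233 and 278 CPM in IAA-treated Wt. The groups did not overlap, and aff1-3 was lowest. ADH1 was lower in aff1-1 (-0.80 ± 0.15, adjusted p = 0.00137, but 0.0118 without aff1-1 replicate 3) and in aff1-3 (-1.38 ± 0.16, adjusted p = 4.2e-06), and its difference between mutants did not pass (-0.58 ± 0.16, adjusted p = 0.115). GBSS1, the starch synthase that makes amylose, was lower in both (-0.84 and -0.88), as was the alpha/beta-hydrolase gene AT4G36610 (-0.95 and -1.31). The aff1-1 call of AT4G36610 was lost without IAA-treated Wt replicate 1, 2 or 3 (adjusted p = 0.0155, 0.0301 and 0.0187). It was also lost without aff1-1 replicate 2 or 3 (0.0257 and 0.0489). AT1G68600 had 8.58, 8.12 and 9.62 CPM in IAA-treated aff1-1, 6.95, 6.05 and 8.09 CPM in IAA-treated aff1-3, and 12.8, 14.6 and 10.9 CPM in IAA-treated Wt. It made no call in aff1-1 (adjusted p = 0.0614) and was lower in aff1-3 (adjusted p = 0.00239), a call lost without Wt replicate 2 (0.0275) and without aff1-3 replicate 1 (0.0114) or 2 (0.0224). PAP3, a purple acid phosphatase, had 14.6, 12.9 and 18.6 CPM in IAA-treated aff1-1, 13.4, 13.6 and 15.9 CPM in IAA-treated aff1-3, and 17, 19.9 and 15.8 CPM in IAA-treated Wt. Its groups overlapped and it made no call (adjusted p = 0.664 and 0.295). In Wt its log2 ratio of IAA over mock was -0.58, the lowest such ratio among the 69.

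Regulators and signalling proteins were 12 of the genes, and 8 of them made no call in either mutant. AT5G26260, the most abundant of them, had 168, 122 and 129 CPM in IAA-treated aff1-1, 144, 158 and 142 CPM in IAA-treated aff1-3, and 306, 249 and 273 CPM in IAA-treated Wt. The groups were well separated, and it was lower in both (-0.89 ± 0.13, adjusted p = 0.000117, and -0.85 ± 0.13, adjusted p = 0.000208). NCRK, a receptor-like kinase, was also lower in both (-0.95 and -0.74). The transcription factor genes WRKY49 and WRKY60, the SAUR-like gene AT2G21220 and the cyclin gene CYCP4;1 made no call. RABA3, a Rab GTPase of vesicle traffic, had 1.85, 2.12 and 1.80 CPM in IAA-treated aff1-1, 2.39, 1.86 and 2.38 CPM in IAA-treated aff1-3, and 2.60, 2.49 and 2.07 CPM in IAA-treated Wt. Its mutant and Wt samples overlapped and it made no call (adjusted p = 0.569 and 0.921). AT3G61550, a RING/U-box gene 4555812 bases from AFF1, had 6.05, 5.43 and 4.12 CPM in IAA-treated aff1-1, 3.41, 4.53 and 5.08 CPM in IAA-treated aff1-3, and 6.45, 7.70 and 6.68 CPM in IAA-treated Wt. It made no call (adjusted p = 0.25 and 0.0434) although its groups did not overlap.

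The remaining 7 genes are of other or unknown role, and 5 of them made no call. AT3G47200, a DUF247 gene and the member nearest to AFF1 at 839463 bases, had 4.45, 4.96 and 4.21 CPM in IAA-treated aff1-1, 3.96, 4.18 and 5.16 CPM in IAA-treated aff1-3, and 7.93, 7.54 and 6.87 CPM in IAA-treated Wt. Its groups did not overlap but it made no call (adjusted p = 0.0367 and 0.0304). AT5G44680 had 5.09, 6.10 and 5.05 CPM in IAA-treated aff1-1, 5.8, 4.43 and 6.18 CPM in IAA-treated aff1-3, and 7.57, 6.33 and 9.54 CPM in IAA-treated Wt. Its mutant values all lay below those of Wt, by little for the highest of each (adjusted p = 0.173 and 0.219). AT5G06270, which RefSeq annotates as uncharacterized, was lower in both (-0.64 and -0.92).

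The response to IAA within each genotype can be set side by side, with the caution that the Wt response was limited by the rule and that each mutant's mock level entered the choice. The median log2 ratio of IAA over mock was 0.13 in aff1-1 and 0.12 in aff1-3, against -0.16 in Wt, where the medians of all 18826 genes of at least 1 CPM were -0.03, 0.04 and 0.04. The ratio was above 0 for 44 genes in aff1-1, 50 in aff1-3 and 19 in Wt. Values at the ends were 1.37 for EXPA17 in aff1-3, against 0.57 in Wt, and -0.69 for the gene TRM10 in aff1-1, against -0.55 in Wt. As mock values chose the genes, no test was made of these ratios.

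The mirror set, taken by the same rule with its signs turned, held 147 genes raised in both mock mutants. Their median log2 ratio under IAA was 0.96 in aff1-1 and 1.06 in aff1-3, with 147 and 145 of 147 above 0. Under mock, which chose them, it was 0.94 and 1.09. For the 69 lowered genes the same medians were -0.75 and -0.76 under IAA and -0.91 and -1.0 under mock. The gap to Wt was smaller under IAA than under mock for 86 and 85 of these 147 genes (58.5% and 57.8%), and for 53 and 59 of the 69 lowered genes (76.8% and 85.5%). Both sets were chosen by a large mock gap, which may make the gap under IAA look smaller, and the part of that choice was not tested. An effect of IAA on the gap was not tested.

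The rest of each gene family was read without the members, with the calls of IAA-treated mutants against IAA-treated Wt. Over all tested genes 1.71% were lower and 4.46% higher in aff1-1, and 1.33% were lower and 3.39% higher in aff1-3. Of the 12 other extensins tested, 2 were lower in each mutant, with median log2 fold changes of -0.19 in aff1-1 and -0.31 in aff1-3, and 0 were higher by edgeR, DESeq2 or limma or at an unadjusted p below 0.05. Of the 12 other alpha-expansins, 5 were lower in aff1-1 and 3 in aff1-3. For these expansins edgeR called 0 higher, with 2 and 3 higher at an unadjusted p below 0.05, DESeq2 called 1 in each mutant, and limma 2 and 1. Of 56 other GDSL lipases, 6 were lower and 6 higher in aff1-1, and 3 were lower and 3 higher in aff1-3. Of 46 other pectin lyase-like genes, 2 were lower in aff1-1 and 3 in aff1-3. None of these was called higher by edgeR, while 2 and 7 were higher at an unadjusted p below 0.05, DESeq2 called 1 in each mutant and limma 1 in aff1-1. Of 57 other peroxidases, 9 were lower and 7 higher in aff1-1, and 8 were lower and 7 higher in aff1-3.

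In the other 4 families edgeR called 0 of the genes outside the 69 lower in either mutant. Of 9 other CAP genes 1 was higher in aff1-1 and 0 in aff1-3, with 3 and 1 lower at an unadjusted p below 0.05, 1 higher there in aff1-3, and 1 lower in each mutant by DESeq2 and by limma. Of 31 other glycine-rich genes 3 were higher in aff1-1 and 2 in aff1-3, with medians of 0.09 and 0.06, with 0 and 1 lower at an unadjusted p below 0.05 and 0 lower by DESeq2 or limma. Of 27 other MLP and Bet v 1 genes 4 were higher in aff1-1 and 2 in aff1-3, with 0 and 6 lower at an unadjusted p below 0.05, and DESeq2 called 1 lower in aff1-3. Of 41 other WRKY genes 4 were higher in aff1-1 and 2 in aff1-3, with 5 and 7 lower at an unadjusted p below 0.05, DESeq2 calling 0 and 1 lower and limma 1 and 3.

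**Figure D4:**
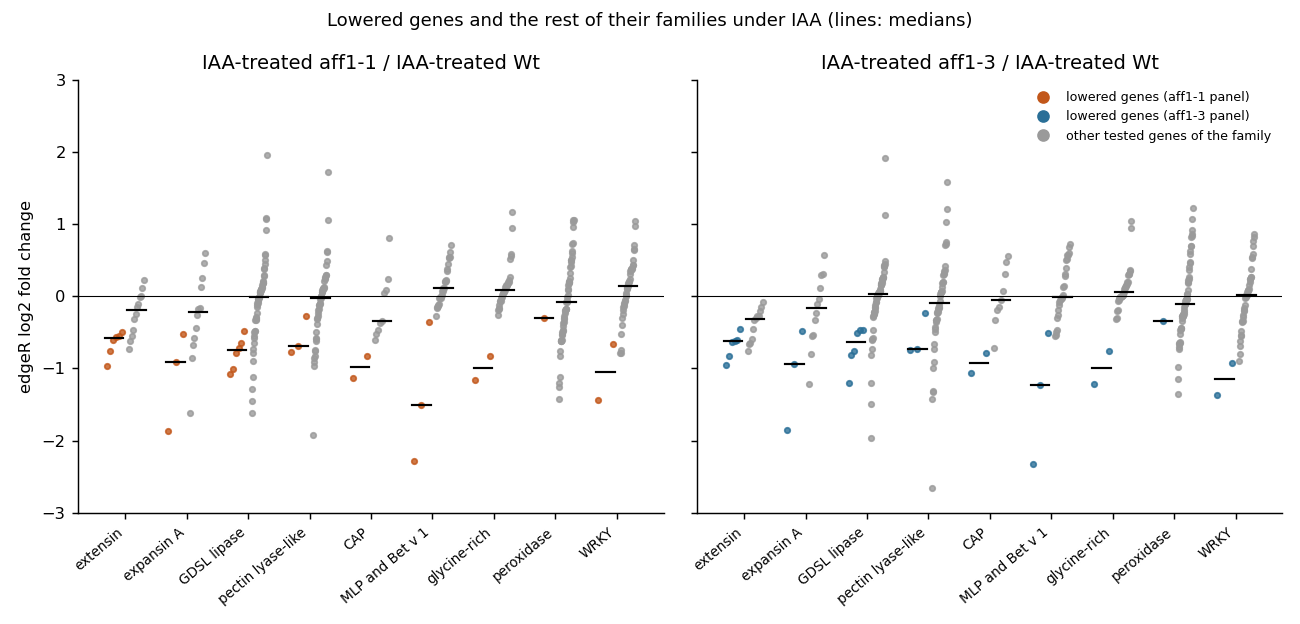
edgeR log2 fold change of IAA-treated mutant over IAA-treated Wt (y axis) for every tested gene of 9 families (x axis), with genes of the lowered set in color, the other genes in gray and lines at the medians. The colored genes, chosen as low in mock, are below 0 in every family, and the other extensins have medians of -0.19 in aff1-1 and -0.31 in aff1-3.

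Cell type markers were read beside these genes, since whole seedlings mix cell types. Root hair markers, of which PRP3 is one of 10, summed to 184 to 204 CPM in IAA-treated aff1-1, 197 to 218 CPM in IAA-treated aff1-3, and 290 to 333 CPM in IAA-treated Wt. In mock samples the sums were 199 to 267 CPM, 177 to 221 CPM and, in Wt, 330 to 372 CPM. Without PRP3 the summed group means under IAA were 115 CPM in aff1-1 and 124 CPM in aff1-3, against 168 CPM in Wt. Under IAA 4 of the 10 were lower in each mutant: PRP3, EXPA7 and EXPA18, root hair expansins, and LRX1. The regulators RHD6 and RSL4, the NADPH oxidase RHD2, COBL9 (SHV2), MRH6 and ADF8 made no call, RHD6 at 2.60 and 4.89 CPM in aff1-1 and aff1-3, against 4.16 CPM in Wt. The estimates of RSL4 were above 0 in both mutants (log2 fold change 0.14 in aff1-1 and 0.40 in aff1-3), and those of RHD6, COBL9 and RHD2 were above 0 in aff1-3 (0.32, 0.07 and 0.07) and below 0 in aff1-1. The part of root hair cell number or growth in the lower levels of the 69 genes was not tested.

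Suberin genes also moved with the set. The 8 of them summed to 80.7 to 92.5 CPM in IAA-treated aff1-1, 73.8 to 83.3 CPM in IAA-treated aff1-3, and 124 to 130 CPM in IAA-treated Wt, and to 73.0 to 85.7 CPM, 51.6 to 74.0 CPM and 105 to 127 CPM in the mock groups in that order. Under IAA 2 were lower in aff1-1, FAR4 and AT1G74460, and 5 in aff1-3, those and FAR5, ASFT and ABCG6. Without AT1G74460 the summed group means were 76.9, 68.6 and 110.0 CPM. Endodermis markers had sums of 108 to 138 CPM in IAA-treated aff1-1, 134 to 141 CPM in IAA-treated aff1-3, and 136 to 144 CPM in IAA-treated Wt, with 0 calls among 7 genes by edgeR, DESeq2 or limma (3 and 2 at an unadjusted p below 0.05). Xylem, phloem, root cap and stomatal markers also had 0 calls by edgeR in either mutant. At an unadjusted p below 0.05, 2 xylem, 2 phloem and 2 root cap markers were lower in aff1-1, 1 root cap marker was lower in aff1-3, and 3 and 2 stomatal markers were higher. DESeq2 called 1 stomatal marker higher in each mutant, and limma called 1 phloem and 1 root cap marker lower in aff1-1 and 3 and 1 stomatal markers higher. The summed phloem markers were nevertheless lower in each mutant sample, at 260.2 to 319.9 CPM in IAA-treated aff1-1 and 289 to 324 CPM in IAA-treated aff1-3, against 338 to 356 CPM in IAA-treated Wt, and xylem sums were lower in aff1-1, at 101 to 139 CPM against 143 to 152 CPM in Wt. Root cap sums were also lower in aff1-1, at 5.07 to 6.02 CPM, against 7.70 to 11.83 CPM in Wt, and overlapped Wt in aff1-3 (5.63 to 8.27 CPM). Stomatal sums were higher, at 64.05 to 72.73 CPM in aff1-1 and 69.63 to 73.41 CPM in aff1-3, against 58.75 to 61.43 CPM in Wt. Shoot photosynthesis genes had 0 lower and 1 higher in aff1-1 and 0 calls in aff1-3 by edgeR (1 lower and 1 higher there by DESeq2 and by limma), and their sums were higher in IAA-treated mutants, at 64327 to 67807 CPM in aff1-1 and 64019 to 67824 CPM in aff1-3, against 60673 to 61252 CPM in Wt. No root hair or suberin marker was at 0, the lowest group means being 2.60 CPM for RHD6 and 1.145 CPM for ABCG6. The part of cell composition in the lower levels was not tested.

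**Figure D5:**
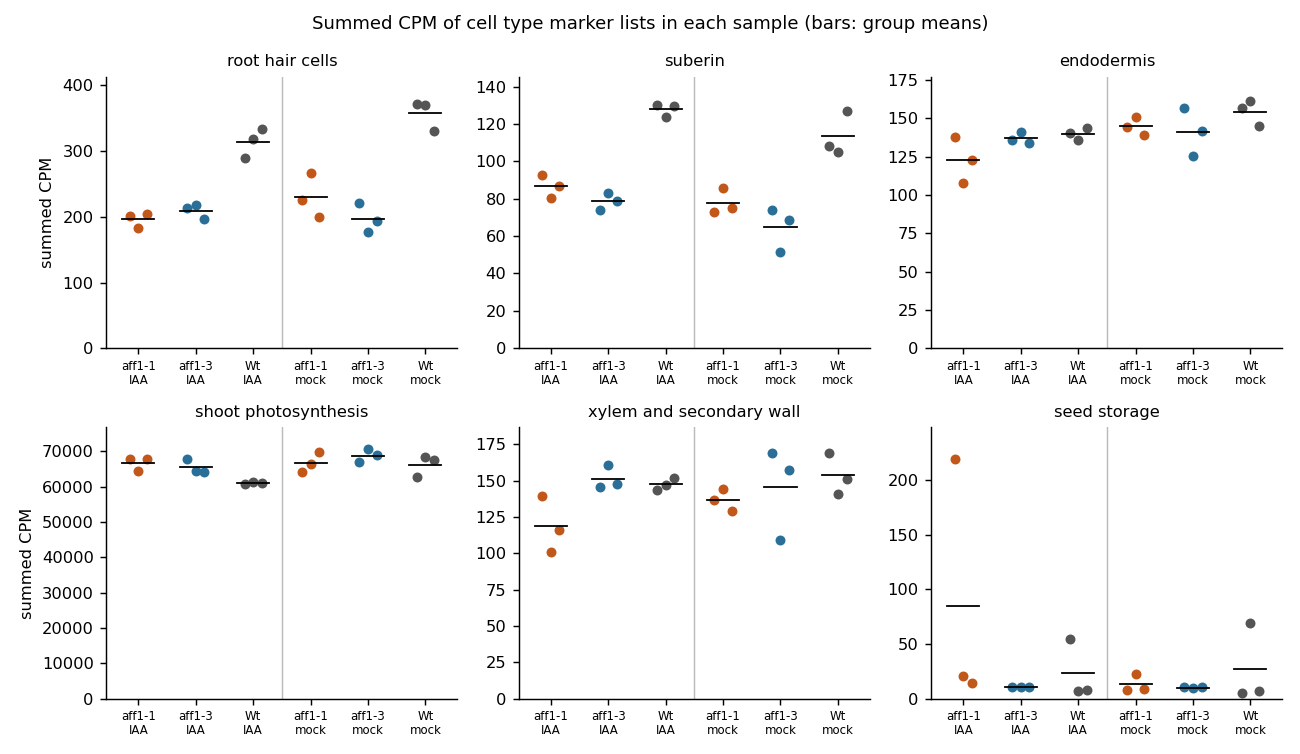
Summed CPM (y axis) of 6 marker lists in each of the 18 samples, IAA left of the vertical line and mock right, with bars at group means. Root hair and suberin sums are lower in every mutant sample than in every Wt sample of the same treatment, the endodermis sums overlap, and seed storage is high in single libraries, up to 218.79 CPM.

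Stress and nutrient lists were read as well, and no member is on one. Of 13 cold and dehydration genes, 5 were higher in IAA-treated aff1-1 and 4 in aff1-3, where 4.46% and 3.39% of all tested genes were higher. In both mutants 0 were lower by edgeR, DESeq2 or limma or at an unadjusted p below 0.05. RD29A, a dehydration and cold response gene, averaged 489.8 and 488.5 CPM in IAA-treated aff1-1 and aff1-3, against 141.9 CPM in Wt. Of 7 heat shock genes, 4 were higher in each mutant. Defence genes had 2 of 9 higher in aff1-1 and 1 in aff1-3. Of 9 sulphur deficiency genes 1 was higher in aff1-1, and of 8 phosphate starvation genes 1 was lower in aff1-1. In aff1-3 edgeR called 0 on these last lists, with 2 sulphur genes higher, 2 phosphate genes lower and 2 phosphate genes higher at an unadjusted p below 0.05, and DESeq2 called 2 and limma 1 phosphate gene lower. Circadian clock genes and the RDR6 and SGS3 silencing genes, listed because RDR6 carried a nearby mutation in the screen line, had 0 calls by edgeR. At an unadjusted p below 0.05, 4 clock genes in each mutant differed, and 3 silencing genes in each were lower. DESeq2 called 1 clock gene in aff1-1 and 1 silencing gene, lower, in aff1-3, while limma called 2 clock genes in each mutant and 0 silencing genes. All 5 silencing genes had estimates below 0 in both mutants. Their sums under IAA were 26.63 to 28.3 CPM in aff1-1 and 25.28 to 26.96 CPM in aff1-3, against 33.07 to 37.61 CPM in Wt. In mock samples the sums overlapped, at 26.77 to 29.82 CPM in aff1-1, 24.31 to 28.12 CPM in aff1-3 and 24.47 to 29.73 CPM in Wt.

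The 69 genes were spread over all 5 chromosomes, with 15, 14, 8, 17 and 15 on chromosomes 1 to 5, or 21.7%, 20.3%, 11.6%, 24.6% and 21.7%, against 26.4%, 15.1%, 19.8%, 15.3% and 23.4% of tested nuclear genes. Chromosome 3, which holds AFF1, had the smallest share. Median exon length was 1582 bases against 1773.5, GC content 41.36% against 41.12%, and exon blocks 3 against 4, and 13 genes had a single exon (18.8% against 16.4%). Motifs were searched in the 250-base windows on both strands, against 19115 windows of tested genes. The auxin response element TGTCTC was in 7 of 69 (10.1% against 10.6%), its variant TGTCGG in 4 (5.8% against 4.65%), the G-box CACGTG in 4 (5.8% against 7.40%), the W-box core TTGAC in 30 (43.5% against 45.2%), the evening element AAAATATCT in 1 (1.45% against 2.46%) and the TATA sequence TATAAA in 37 (53.6% against 46.7%), including all 6 extensins. Matches that overlap each other were all counted, and a match is a description and not a binding site.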

How the data were processed

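RNA was measured by sequencing in 18 samples. The authors deposited 1 table of counts per gene, not normalized, made from 50-base single reads with STAR and featureCounts (Subread) on TAIR10 and counting uniquely aligned, unambiguous reads. Library preparation is given as ribosomal RNA removal in the study's methods and as a SMARTer kit in the labels, and strand use in counting is not given in the sources used here. The number of per-sample columns left unused was 0. CPM was computed here from those counts. The 69 genes, the gene lists and the tests were chosen with earlier results of these data known, and the role groups, the families, the root hair element and the shared stretch were chosen after values or sequences had been seen.

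Of 28278 genes, 99.0% matched a locus of RefSeq TAIR10.1, as did all 69. The 4 nuclear ribosomal RNA genes were left out of the test. Differences were tested with the quasi-likelihood method of edgeR 4.0.16 in R 4.3.3, with TMM factors and 6 group means, on 19383 genes above 1 CPM in at least 2 samples of a group, and all 69 passed that filter. Of the 69, AT2G16005, MLP328, AT3G26460, AT1G73600 and WRKY49 passed it through Wt samples alone. A call is a Benjamini-Hochberg adjusted p below 0.01 over all genes. Errors of fold changes are standard errors. The study used limma with sample weights, which is an alternative here (limma 3.58.1), beside DESeq2 1.42.0, other scalings and filters, a replicate block and each sample left out. The script was tested on simulated data.

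Total counts were 12610301 to 36102396 per sample (median 23433718). Groups at 3 counts or fewer in every sample would have been treated as at the floor, and these limits cover counting error only. Replicates differed beyond sampling noise (chi-square per gene 3.909 to 37.31), so each was counted once.

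Genes named with their values are the 12 lowest by mean mock ratio, the 6 highest by CPM, the 3 lowest and 3 highest under IAA, the 3 nearest AFF1, adjacent members, members on a list and the 2 genes on each side of the threshold. Others were named after their values were seen.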

Additional observations from a re-analysis of the deposited data

Results flagged for a closer look

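AIR1 (AT4G12550) was the only one of the 69 genes whose effect differed between the mutants under IAA by edgeR's test of the difference itself, with a log2 fold change of IAA-treated aff1-3 over IAA-treated aff1-1 of -1.728 (SE 0.20, adjusted p = 5.3e-05). It was lower in aff1-3 than in aff1-1 in 3 of 3 samples. Over all alternatives the difference was between -1.875 and -1.653 with a highest adjusted p of 0.00177. Each group has 3 samples, too few for a check of single samples that stand apart. The rule took AIR1 with mock ratios of -0.82 in aff1-1 and -2.08 in aff1-3, so an unequal pair was present in the values that chose it.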

How the results depend on the processing

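Requiring also a log2 fold change of -1 or lower (or, between mutants, 1 or higher) left 10 genes lower in IAA-treated aff1-1, 11 in aff1-3 and 6 in both. Fitting only the groups compared gave 2 genes that differ between mutants. With each sample left out in turn, the genes lower were 27 to 34 in aff1-1, 23 to 29 in aff1-3 and 18 to 25 in both, with 1 between mutants, and the median log2 fold changes were -0.722 to -0.684 and -0.769 to -0.721. The rule itself gave 84 genes with a pseudocount of 0.1 CPM (64 of them among the 69) and 42 with one of 2 CPM (40 among the 69). It gave 59 genes with TMM-scaled library sizes (58 among the 69), the scaling of the test. Sums of nuclear genes without ribosomal RNA gave 65 (63 among the 69). The count was 19 with the mock ratio at -1 or less and 128 with it at a 1.5-fold difference or more. It was 43 with a mean of at least 5 CPM and 43 with a Wt IAA ratio within 0.3. With each mock sample left out it was 60 to 102 (49 to 67 among the 69, fewest without mock Wt replicate 3). Membership in the set thus depends on its limits and on the scaling. The cause was not tested beyond these changes.

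Same-numbered samples of the IAA groups did not deviate together (correlations -0.132 to 0.188, 1 of 9 over 0.1). Differently numbered samples of IAA-treated aff1-3 and aff1-1 had correlations from -0.273 to 0.306. Mock samples were not checked, so this does not show what samples of 1 number may share. With the replicate block, 35 genes were lower in aff1-1, 33 in aff1-3 and 25 in both, and AT3G26460, AT5G06630 and EXT10 passed no longer in aff1-1 (adjusted p = 0.012, 0.011 and 0.0102). DESeq2 gave 41, 40 and 32, and limma 45, 42 and 36. Of the genes called, 23 of 37 in aff1-1 and 21 of 33 in aff1-3 kept the call under every alternative, and not every loss is named above. Of 2893 values of single genes under an alternative, set beside those reported, 0 reversed, 94 lost the call and 59 gained it. Genes of few counts, such as EXPA17 and MLP328, are limited by depth.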
